A study of Homo sapiens with 9 samples.

Results

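The loci of IGF2BP1, IGF2BP2 and IGF2BP3 were examined for accessible chromatin in HEK293T cells in which each of these genes had been knocked out in turn. A locus was taken as the annotated gene body plus 50 kb on each side (GRCh38), and its members were all peaks of the deposited lists that touched it. This gave 67 of the 194414 peaks in the 4 lists, which merged into 25 of 71597 distinct regions. IGF2BP1 lies at chr17:48996558-49056145, IGF2BP2 at chr3:185643130-185825042 and IGF2BP3 at chr7:23310209-23470491 (RefSeq gene spans). Whether a peak inside a gene was exonic or intronic was not determined. The IGF2BP1 locus held 21 of the 67 peaks, the IGF2BP2 locus 25 and the IGF2BP3 locus 21.

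The 3 genes encode the IGF2 mRNA-binding proteins, also called IMP1, IMP2 and IMP3. They are closely related cytoplasmic proteins with RNA recognition motifs and KH domains that bind target transcripts, among them IGF2 mRNA, and affect their stability, localization and translation. IGF2BP1 and IGF2BP3 are known as oncofetal proteins, made in the embryo, largely silent in most adult tissues and often made again in tumours, whereas IGF2BP2 is also made in many adult tissues. At an active gene, the DNA around the transcription start is kept free of nucleosomes, and the Tn5 transposase used in ATAC-seq inserts there.

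The cells were HEK293T, an established line derived from human embryonic kidney, grown without further treatment. The control (CRISPRCas9 non-targeting control, labelled WT) had 2 libraries, the IGF2BP1 gene knockout 3, the IGF2BP2 gene knockout 2 and the IGF2BP3 gene knockout 2. The control cells, which received a guide without a mammalian target, and the knockouts were made in parallel, by transient transfection. Each knockout plasmid carried 3 guide RNAs against its gene and a GFP marker, and 1 clone grown from a single sorted cell stood for each knockout, so the genotype and the clone cannot be told apart. Colonies had been assessed for IGF2BP protein against the control, per the labels. The libraries of each group were represented by 1 peak list, with positions only. No spread between libraries could be measured, no test was possible, and every difference below is a description of lists. The 3 knockouts are read against the same control list, so their differences from it are not independent. Batches 2 and 3 fed all groups and batch 1 the IGF2BP1 knockout alone, and lists could not be compared within a batch. A list of peaks does not measure the edit, the transcript or the protein.

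The control list held 39194 peaks, and the IGF2BP1, IGF2BP2 and IGF2BP3 knockout lists 1.3, 1.54 and 1.12 times as many. The median peak widths were 771, 834, 651 and 713 bp in the same order, so the IGF2BP2 knockout list was the longest and its peaks the narrowest. Of the 25 regions at the 3 loci, 32.0% were in all 4 lists and 28.0% in 1 list, beside 41.5 and 28.1% of all regions. Of 8 marker genes of embryonic kidney and neural type known in HEK293T, 7 had a peak at a gene start in the control list and in the IGF2BP1 and IGF2BP2 knockout lists, and all 8 had one in the IGF2BP3 knockout list. Of 7 markers of other cell types, 3 to 4 had one per list (SPI1, MYOD1 and COL1A1 in every list, CD3E in the IGF2BP1 knockout list), and PTPRC, ALB and CDH5 had none in any list. Over all 20037 coding genes, 66.6 to 68.7% had a start peak per list. In the IGF2BP2 knockout list, the bases covered at the starts of the kidney and neural markers had a median of 0.979 times the control. LHX1, a transcription factor gene of the developing kidney and the neural tube, was lowest (538 against 1551 bases, 0.347 times). NEFM, a neurofilament gene with 511 bases in the control, was highest (1.78 times). In the IGF2BP1 and IGF2BP3 knockout lists, LHX1 stood at 1.04 and 1.0 times the control and NEFM at 2.36 and 1.32 times.

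The sequences before the annotated starts are shown because the lists differed at the outer IGF2BP2 start and at the IGF2BP3 start, with the inner IGF2BP2 start, where no list had a peak, beside them. RefSeq (GRCh38.p14) lists 3 starts for 2 of the 3 genes, IGF2BP2 and IGF2BP3, both on the minus strand. The 250 bases before each start are given 5′ to 3′ in the direction of the gene. Capitals mark matches, on either strand, to the motifs GGGCGG (bound by SP and KLF factors), CCAAT (NF-Y), TATAAA (the TATA box), CACGTG (the E-box of MYC, USF and related factors), TGACGTCA (CREB), the NRF1 consensus, CCGGAAGT (ETS factors) and TGANTCA (AP-1).
IGF2BP2, outer start, chr3:185825043-185825292: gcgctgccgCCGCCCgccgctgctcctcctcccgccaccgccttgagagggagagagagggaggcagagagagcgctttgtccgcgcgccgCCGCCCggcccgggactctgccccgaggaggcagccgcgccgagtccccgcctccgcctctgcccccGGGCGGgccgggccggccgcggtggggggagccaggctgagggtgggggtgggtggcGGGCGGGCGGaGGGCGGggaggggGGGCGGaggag
IGF2BP2, inner start, chr3:185821143-185821392: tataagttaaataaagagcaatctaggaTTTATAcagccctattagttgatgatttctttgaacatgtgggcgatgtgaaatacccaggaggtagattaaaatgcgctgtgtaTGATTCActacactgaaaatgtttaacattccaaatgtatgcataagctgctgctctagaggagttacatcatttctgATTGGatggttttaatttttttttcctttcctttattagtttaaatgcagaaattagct
IGF2BP3, chr7:23470492-23470741: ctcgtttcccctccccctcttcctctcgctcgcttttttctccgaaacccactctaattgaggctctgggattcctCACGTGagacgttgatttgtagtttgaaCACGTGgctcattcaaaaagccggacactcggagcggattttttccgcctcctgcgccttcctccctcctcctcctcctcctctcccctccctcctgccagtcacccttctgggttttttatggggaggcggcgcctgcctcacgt

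The outer IGF2BP2 stretch had a GC content of 81.6% with 32 CpG dinucleotides, the inner one 32.8% with 2, and the IGF2BP3 stretch 56.8% with 15. The medians over 35116 such stretches in the RefSeq table were 58.0% and 11. GGGCGG matched at 7 places in the outer IGF2BP2 stretch, some overlapping each other, and 42.6% of the 35116 stretches held at least 1 match. CACGTG matched at 2 places before IGF2BP3, a motif present in 6.34% of stretches. The inner IGF2BP2 stretch held 1 match each to TATAAA (10.7% of stretches), CCAAT (32.0%) and TGANTCA (6.57%). A match describes the letters and does not show that a factor is bound. Peaks of all 4 lists covered all 250 bases before the outer IGF2BP2 start, and no list had a peak on the 250 bases before the inner start. Before IGF2BP3, the control and IGF2BP1 knockout lists covered all 250 bases, and the IGF2BP2 and IGF2BP3 knockout lists covered 0.

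At the start of IGF2BP1, every list had a peak, and it was the IGF2BP2 knockout list, not that of the IGF2BP1 knockout, in which it was short. The control peak was 2434 bp wide (chr17:48995574-48998007), reaching from 984 bp before the gene start to 1449 bp after it. In the IGF2BP1 knockout, the peak was 2392 bp wide (chr17:48995288-48997679), from 1270 bp before the start to 1121 bp after it. In the IGF2BP2 knockout, it was 907 bp wide (chr17:48995906-48996812), from 652 bp before to 254 bp after the start. Both edges of the last peak lay inside those of the control peak. The IGF2BP3 knockout list had 2 pieces of 1850 bp (chr17:48995379-48997228) and 519 bp (chr17:48997453-48997971), separated by a gap of 224 bp between 670 and 895 bp into the gene.

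To compare genes, the bases covered by peaks within 1 kb of a gene start were counted. For IGF2BP1 they were 1985 in the control, 2001 in the IGF2BP1 knockout, 907 in the IGF2BP2 knockout and 1777 in the IGF2BP3 knockout. The IGF2BP2 knockout stood at 0.457 times the control. The own knockout stood at 1.01 times. Its peak filled the 2001 bases of the window at the gene start, so the ratio could hardly have been higher there. The far end of the gene was counted too and held no peak in any list. The whole peaks, at 2392 and 2434 bp, also differed little in width. Over 13081 coding genes with a start peak in both lists, the median ratio of the IGF2BP2 knockout to the control was 0.997, and 0.91% of genes had a ratio as low as that of IGF2BP1. A ratio at or below 1/1.5 was found at 3.86% of these genes. The control peak ranked at percentile 99.7 of its list by width and the own knockout's at 99.5, against 74.4 in the IGF2BP2 knockout list. These are ranks within each list, so they also depend on how many narrow peaks a list holds. The larger IGF2BP3 knockout piece ranked at 98.1 and the smaller at 25.5. A start peak in more pieces than in the control was found at 2.71% of coding genes in the IGF2BP3 knockout list.

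At the start of IGF2BP2, the peaks fell into pieces that differed between lists, and the short list was that of the own knockout. The control had a piece of 898 bp over the start (chr3:185824539-185825436) and 1 of 636 bp upstream of it (chr3:185825688-185826323), with a gap of 251 bp. The IGF2BP2 knockout had a piece of 372 bp over the start (chr3:185825001-185825372) and 1 of 745 bp upstream (chr3:185825639-185826383), with a gap of 266 bp. The upstream pieces began 1281 and 1341 bp before the start in these lists. The pieces over the start differed mainly on the side of the gene, where the control piece ran 503 bp into the gene and the IGF2BP2 knockout piece 41 bp.

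The lists of the other knockouts were wider there. The IGF2BP1 knockout had 3 pieces, of 754 bp (chr3:185825640-185826393), 1152 bp (chr3:185824267-185825418) and 681 bp (chr3:185823438-185824118), with gaps of 221 and 148 bp. The last of these pieces, which ended 1604 bp inside the gene, was in no other list. The IGF2BP3 knockout had a single peak of 1773 bp (chr3:185824527-185826299) that spanned the gap seen in the other 3 lists. More pieces than in the control were found at 2.36% of coding genes in the IGF2BP1 knockout list, and fewer pieces at 2.11% in the IGF2BP3 knockout list. All gaps were under 500 bp, and merging peaks closer than that left 1 piece in every list.

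The bases covered within 1 kb of the IGF2BP2 starts were 1253 in the control, 1632 in the IGF2BP1 knockout, 776 in the IGF2BP2 knockout and 1516 in the IGF2BP3 knockout. The own knockout was the lowest, at 0.619 times the control, and 2.77% of coding genes had a ratio as low in that list. The IGF2BP1 knockout covered 2.1 times and the IGF2BP3 knockout 1.95 times as many bases as the own knockout. Against the IGF2BP1 knockout list, 7.82% of coding genes were covered at most 1/1.5 times as much in the IGF2BP2 knockout list, and against the IGF2BP3 knockout list 3.87%. The ratios of the other knockouts to the control, 1.3 and 1.21, lay above those of most coding genes (87.6 and 90.3% of genes had a ratio as low or lower), with medians of 1.07 and 0.999. The piece over the start in the own knockout was narrow for its list, at percentile 10.1, against 61.9 for the control piece, while the upstream piece of the own knockout ranked at 61.3. With each list limited to its 39194 widest peaks, the number in the control list, the piece over the start dropped out of the own knockout and 404 bases were left.

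**Figure D1:**
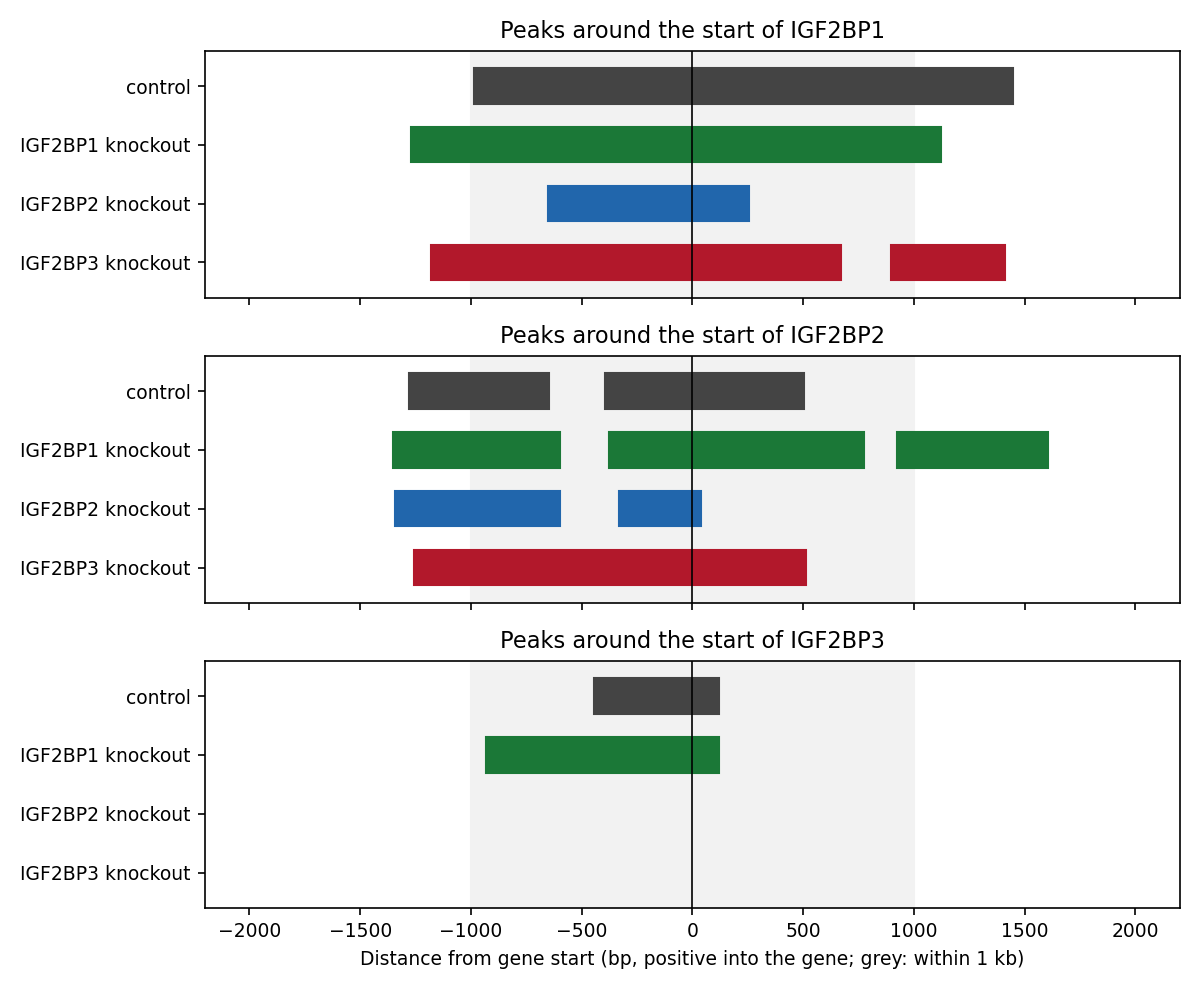
Peaks around the gene starts, to scale, by list. The x axis is the distance from the gene start in bp (positive into the gene), each box is 1 deposited peak, and the grey band is the window of 1 kb on each side. The IGF2BP2 knockout list had the shortest cover at IGF2BP1 (907 bp) and at IGF2BP2 (776 bp within the band), and the IGF2BP2 and IGF2BP3 knockout lists had no box at IGF2BP3.

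At the start of IGF2BP3, a peak was listed in the control and in the IGF2BP1 knockout and in neither of the other lists. The control peak was 564 bp wide (chr7:23470372-23470935), from 444 bp before the start to 119 bp after it. The IGF2BP1 knockout peak was 1051 bp wide (chr7:23470372-23471422), with the same edge inside the gene and an upstream edge 931 bp before the start. The ratio of 1.86 in covered bases between these lists was at least 1.5, as it was at 5.52% of coding genes, and 98.0% of genes had a ratio as low or lower. The own knockout and the IGF2BP2 knockout each covered 0 bases. Of 13344 coding genes with a start peak in the control, 1.97% had none in the IGF2BP2 knockout list and 2.08% none in the IGF2BP3 knockout list. The control peak at IGF2BP3 was narrow, at percentile 25.9 of its list. Without peak heights, a list that lacks a peak shows only that none passed the authors' threshold there.

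**Figure D2:**
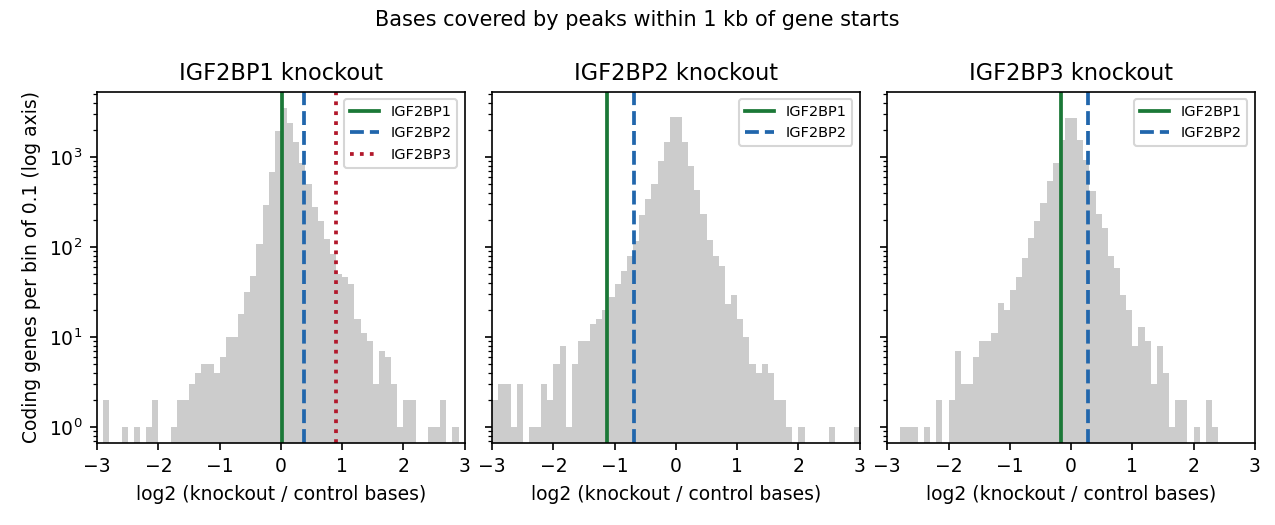
Bases covered by peaks within 1 kb of gene starts in each knockout list relative to the control (x axis, log2 ratio), as a histogram over coding genes with a start peak in all 4 lists (y axis, log scale; ratios beyond the axis are not drawn). Lines mark the members with a peak in both lists. IGF2BP1 (ratio 0.457) and IGF2BP2 (0.619) stood in the left tail of the IGF2BP2 knockout, and IGF2BP3 (1.86) in the right tail of the IGF2BP1 knockout. It has no line in the other panels because no peak was listed.

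Inside the gene bodies, IGF2BP2 had the most sites, and none of them was in all 4 lists. Apart from the start, the control had 2 peaks in the IGF2BP2 body, the IGF2BP1 knockout 5, the IGF2BP2 knockout 4 and the IGF2BP3 knockout 6. A site 90.7 kb into the gene (chr3:185734023-185734580, 558 bp in the control) was 559 bp wide without IGF2BP1 and 434 bp without IGF2BP3. It had no counterpart in the own knockout. A site 50.8 kb into the gene was 385 bp wide in the control (chr3:185774012-185774396) and 618 bp in cells without IGF2BP1, and was in neither of the other lists. The control peak there was narrow, at percentile 6.71. Both control peaks of the gene body were thus missing from the own knockout, the second of them also from the IGF2BP3 knockout, and neither from the IGF2BP1 knockout.

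The sites that the control lacked were divided along the gene. At 38.5 kb (chr3:185786198-185786904) and 122.6 kb (chr3:185701759-185703142) from the start, the IGF2BP1 and IGF2BP3 knockouts each had a peak. The widths were 707 and 543 bp at the first site and 1324 and 827 bp at the second. The own knockout had no peak at either site. The IGF2BP3 knockout alone had a peak of 518 bp at 28.3 kb (chr3:185796485-185797002). All 4 body peaks of the own knockout lay in the part of the gene farthest from the start, at 136.0 kb or more. Of these, the site at 164.4 kb (chr3:185660248-185660959) was in all 3 knockout lists, with 712, 550 and 629 bp. The site at 136.0 kb (chr3:185688686-185689487) was shared with the IGF2BP3 knockout alone, with 802 bp in the own knockout and 456 bp in the other. Those at 147.7 kb (chr3:185677162-185677623, 462 bp) and at 181.8 kb, across the far end of the gene (chr3:185642910-185643651, 742 bp), were in the own knockout alone.

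In the body of IGF2BP3, the site nearest the start was again missing from the own knockout. It lay 39.7 kb into the gene and was 993 bp wide in the control (chr7:23430128-23431120). Its widths were 1257 bp without IGF2BP1 and 555 bp without IGF2BP2. The control peak was wide for its list (percentile 69.3). A second site, at 112.6 kb, was in all 4 lists, with 518 bp in the control (chr7:23357601-23358118) and 1009, 684 and 581 bp without IGF2BP1, IGF2BP2 and IGF2BP3. The IGF2BP2 knockout therefore lacked the start peak but had both body peaks, whereas the own knockout lacked the start peak and 1 of the 2.

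In the body of IGF2BP1, a site 35.9 kb from the start was in all 4 lists, with 720 bp in the control (chr17:49032139-49032858) and 793, 603 and 536 bp without IGF2BP1, IGF2BP2 and IGF2BP3. The only other body peak was in the IGF2BP3 knockout, 26.0 kb from the start (chr17:49022373-49022842, 470 bp). The own knockout of IGF2BP1 had the same 2 sites at the start and in the body as the control, unlike the own knockouts of its paralogues.

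**Figure D3:**
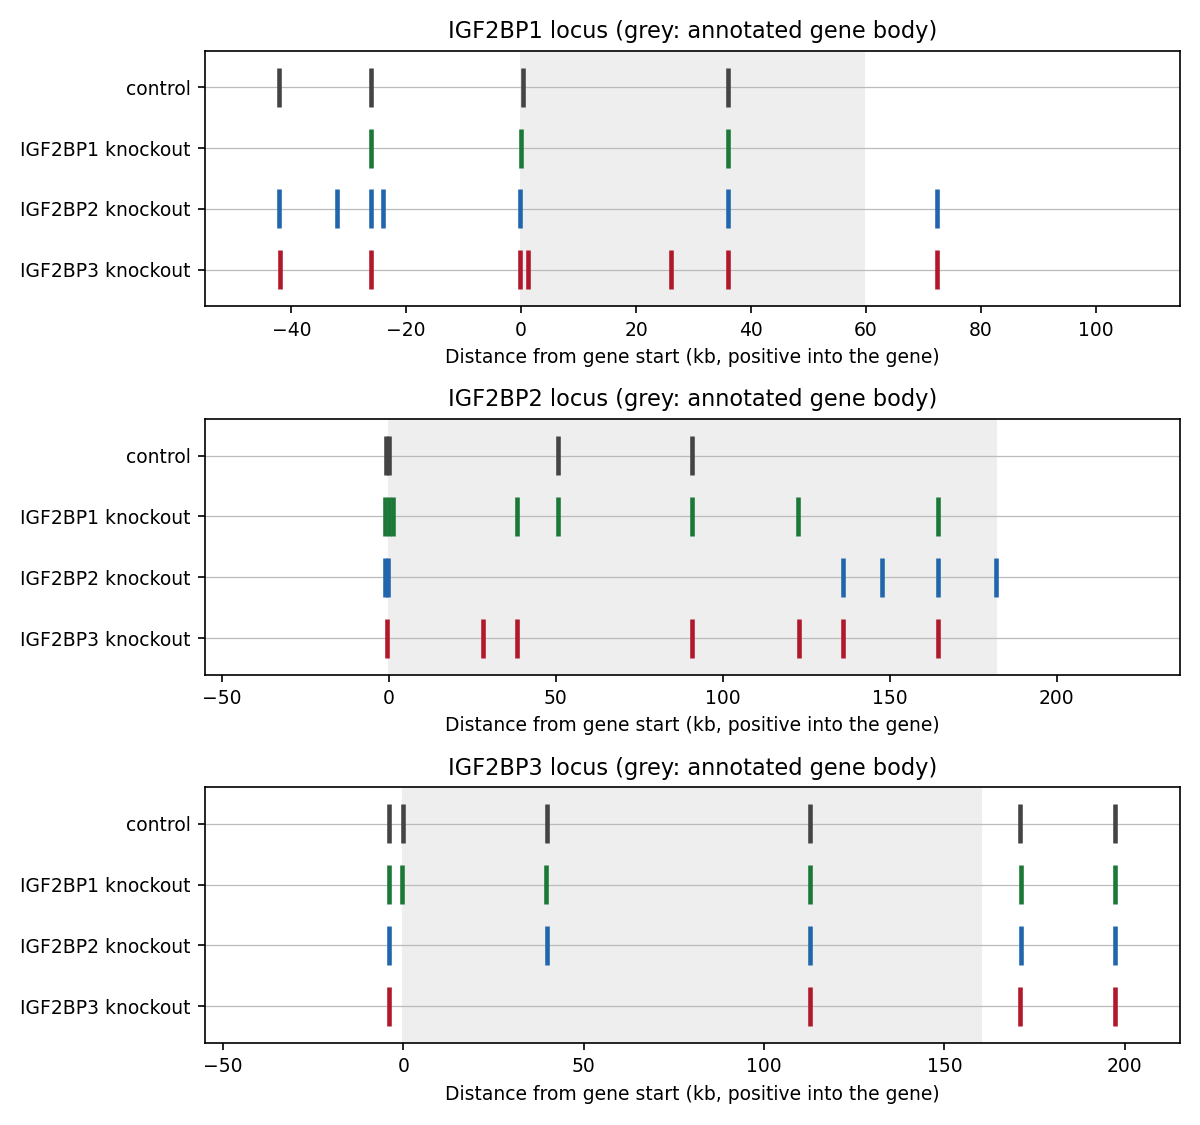
All 67 peaks of the 3 loci by list. The x axis is the distance from the gene start in kb (positive into the gene), each tick is the midpoint of 1 peak, not its width, and grey marks the gene body. In its own knockout, IGF2BP2 had no tick between the start and 136.0 kb, and IGF2BP3 had none between the upstream site at -3.9 kb and the site at 112.6 kb.

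In the flanks, the site nearest a gene start lay 3.9 kb upstream of IGF2BP3 and was in all 4 lists, with 871 bp in the control (chr7:23473948-23474818) and 839, 899 and 789 bp in the knockout lists in the same order. The start of MALSU1, whose product assists mitochondrial ribosome assembly and whose gene overlaps the far end of IGF2BP3, was covered in all lists, with 811 bp in the control (chr7:23298975-23299785) and 1072, 1033 and 829 bp in the knockout lists. A site within GPNMB, which encodes a transmembrane glycoprotein, was likewise in all lists, with 599 bp in the control (chr7:23272963-23273561) and 577 to 668 bp in the knockouts. The sites around IGF2BP3 that the IGF2BP3 knockout lacked were thus the start and the nearer body site, and those on both sides of them were present. Of the 18 annotated genes that lay within the 3 loci in whole or in part, besides the members, MALSU1 was the single one with a peak at a start or end inside the locus.

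Upstream of IGF2BP1, a site at -42.1 kb was missing from the own knockout and was 585 bp wide in the control (chr17:48954123-48954707). It was 767 bp without IGF2BP2 and 353 bp without IGF2BP3. A site at -26.1 kb was in all lists, with 831 bp in the control (chr17:48970057-48970887), 536 bp in the own knockout and 670 and 679 bp without IGF2BP2 and IGF2BP3. The own knockout peak there ranked at percentile 14.3 of its list, against 45.8 to 55.8 in the others. The IGF2BP2 knockout had further peaks at -32.1 kb, within GIP, the gene of an incretin hormone (chr17:48964254-48964741, 488 bp), and at -24.0 kb (chr17:48972303-48972785, 483 bp). A site past the far end of IGF2BP1, 72.3 kb from its start (chr17:49068623-49069188) was in the IGF2BP2 and IGF2BP3 knockouts, with 566 and 555 bp. The flanks of IGF2BP2 held no peak in any list apart from the pieces at the start.

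**Figure D4:**
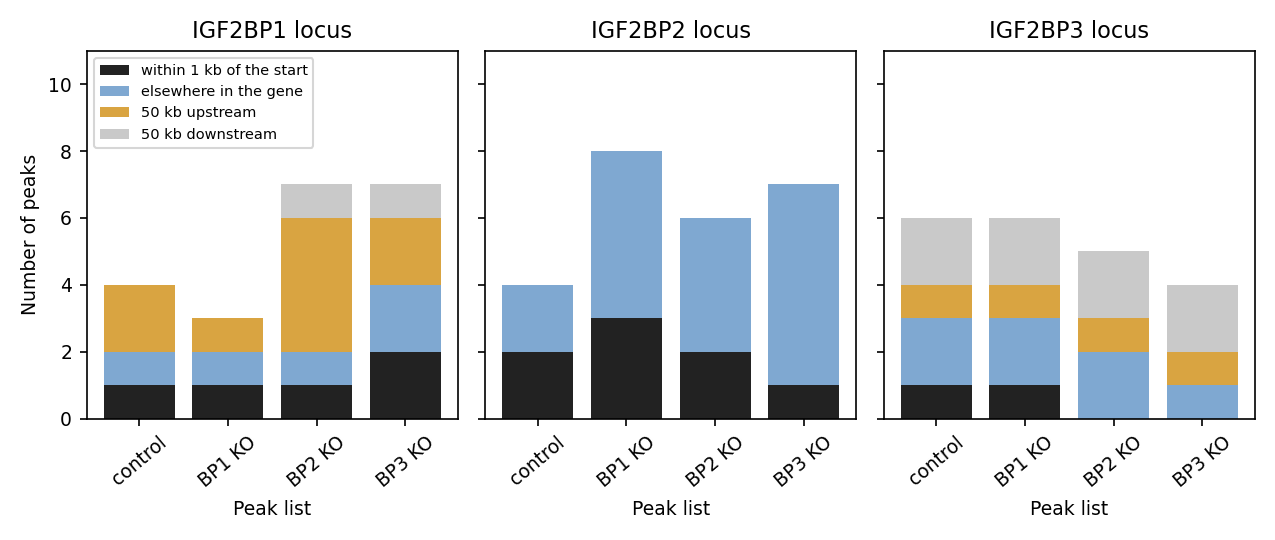
Number of peaks per locus (y axis) in each list (x axis, KO for knockout, BP1 to BP3 for the gene knocked out), split by place. The IGF2BP1 locus had 3 peaks in its own knockout and 7 in each of the other knockouts, the IGF2BP2 locus 4 in the control and 6 to 8 in the knockouts, and the IGF2BP3 locus 6 in the control and 4 in its own knockout.

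The number of peaks was lowest in the own knockout at the IGF2BP1 and IGF2BP3 loci, though at IGF2BP1 not with a flank of 25 kb. The IGF2BP1 locus had 4 peaks in the control, 3 in the own knockout and 7 in each of the IGF2BP2 and IGF2BP3 knockouts. With that shorter flank, it had 2 in both the control and the own knockout. The IGF2BP2 locus had 4 in the control, 8 in the IGF2BP1 knockout, 6 in the own knockout and 7 in the IGF2BP3 knockout. The IGF2BP3 locus had 6 in the control, 6 in the IGF2BP1 knockout, 5 in the IGF2BP2 knockout and 4 in the own knockout. Read against 13547 coding genes with at least 3 control peaks in the body and 50 kb on each side, counts at least 1.5 times the control were common in the IGF2BP2 knockout list (22.3% of genes), less so in the IGF2BP1 knockout list (12.6%) and the IGF2BP3 knockout list (6.55%). With each list limited to its 39194 widest peaks, the IGF2BP2 locus had 4 peaks in its own knockout, as in the control, and the IGF2BP1 locus 5 in the IGF2BP2 knockout, so neither was 1.5 times the control. The IGF2BP2 locus then had 7 in each of the IGF2BP1 and IGF2BP3 knockouts, and the IGF2BP1 locus 6 in the IGF2BP3 knockout, each against 4 in the control and still at least 1.5 times as many. The count at the IGF2BP3 locus in its own knockout was 1/1.5 of the control, a ratio reached or passed downwards at 11.5% of genes in that list.

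Of the 4 control peaks at the IGF2BP1 locus, 1 had no counterpart (no shared base) in the own knockout, and all 4 had one in each of the other knockouts. At the IGF2BP2 locus, 2 of 4 control peaks had none in the own knockout, 1 in the IGF2BP3 knockout and 0 in the IGF2BP1 knockout. At the IGF2BP3 locus, 2 of 6 had none in the own knockout, 1 in the IGF2BP2 knockout and 0 in the IGF2BP1 knockout. Each own knockout thus lacked at least 1 control peak of its gene's locus, which at IGF2BP1 was the single site at -42.1 kb, outside a flank of 25 kb. Over the whole control list, 10.1% of peaks had no counterpart in the IGF2BP1 knockout, 8.8% in the IGF2BP2 knockout and 18.5% in the IGF2BP3 knockout. In the other direction, the own knockouts of IGF2BP1 and IGF2BP3 had 0 peaks at their locus that the control lacked, and that of IGF2BP2 had 4 of 6. The IGF2BP1 knockout had 4 of 8 and the IGF2BP3 knockout 5 of 7 such peaks at the IGF2BP2 locus, and the IGF2BP2 and IGF2BP3 knockouts 3 of 7 and 2 of 7 at the IGF2BP1 locus. At the IGF2BP3 locus no knockout had any. The shares over the whole lists were 31.2, 40.2 and 27.2% in the IGF2BP1, IGF2BP2 and IGF2BP3 knockouts. The 6 regions of IGF2BP3 were all in the control list, whereas 8 of the 11 regions of IGF2BP2 were not. Over the 3 loci together, 12 of 25 regions were not in the control list. The whole series had 71597 regions and 39194 control peaks, so many regions elsewhere also lacked a control peak. Whether the loci differ in this was not tested.

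Genes whose products bind IGF2BP proteins or share their ribonucleoprotein particles were read in the same way. All 16 (HNRNPU, SYNCRIP, YBX1, DHX9, ELAVL1, PABPC1, STAU1, FMR1, FXR1, FXR2, HNRNPA1, HNRNPL, MATR3, CAPRIN1, G3BP1 and ILF2) had a start peak in every list, beside 66.6 to 68.7% of all coding genes. The median ratio of covered bases to the control was 1.06 in the IGF2BP1 knockout, 0.948 in the IGF2BP2 knockout and 1.02 in the IGF2BP3 knockout. The medians over coding genes with a start peak in both lists were 1.07, 0.997 and 0.999. None of the 16 was covered at most 1/1.5 times as much as in the control, and 1 was covered at least 1.5 times as much, FXR1 in the IGF2BP3 knockout (1273 against 844 bases, 1.51 times), whose product is related to the fragile X protein. Of coding genes with a start peak in both lists, 0.825, 3.86 and 3.45% were covered at most 1/1.5 times as much without IGF2BP1, IGF2BP2 and IGF2BP3. The shares covered at least 1.5 times as much were 5.52, 2.25 and 2.16%, so counts of 0 or 1 among 16 genes lay near the background. The lowest ratio was 0.677, at HNRNPL in the IGF2BP2 knockout, above the values of 0.457 and 0.619 for IGF2BP1 and IGF2BP2 in that list.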

How the data were processed

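Accessible chromatin was measured by ATAC-seq with Omni-ATAC lysis and transposition, per the labels' protocols, from 100000 cells a reaction, in 9 libraries. The authors deposited 4 peak lists, 1 per group, with chromosome, start and end and no height, score or p-value. The submitters' processing notes name fastp 0.24.1, BWA 0.7.17, MACS2 3.0.0, bedtools and GRCh38. Their settings, the treatment of the transposase offset and how libraries were combined are not given in the sources used here. Depth is unknown, so weak peaks near the authors' threshold cannot be weighed.

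Starts were turned to 1-based coordinates. Gene spans and starts come from RefSeq tables (GRCh38.p14), which give no exons. All listed starts of a gene were used (15842 coding genes) or, where none is listed, as for IGF2BP1, both gene ends (4195). IGF2BP1 is drawn from its lower-coordinate end, where it is known to begin. Peaks sharing at least 1 base were counterparts. Background percentages for start width and pieces cover the 13066 to 13393 coding genes with a start peak in both lists compared. Those for absent start peaks cover the 13344 with a start peak in the control. Those for locus counts cover the 13547 with at least 3 control peaks, and those for counterparts all peaks (Python 3.11.15, pandas 2.3.3). The counting was tested on simulated lists. Genes were named by rule: the members, genes within 50 kb and the listed partners and markers. Some listed genes are not reported here. The members and lists were chosen with earlier results of these data known. Alternatives changed list length, merging, flank, start window and overlap.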

Additional observations from a re-analysis of the deposited data

How the results depend on the processing

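Each group has 1 list without depth or height, so leaving out a library was not possible, and a missing peak can mean a weak one. No paired analysis was possible because the replicates of a group cannot be separated in the deposited lists. Requiring 50% of the shorter peak as overlap moved 0 of 18 counts.

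With the 39194 widest peaks of each list, 54 of 77 values stayed within their limits. Among them were all 12 peak counts per locus, which changed by at most 1.5 times. The count in the own knockout fell from 3 to 2 at the IGF2BP1 locus and from 6 to 4 at the IGF2BP2 locus, each exactly at that limit. The IGF2BP2 knockout lost its 372 bp piece at the IGF2BP2 start (1 piece, 404 covered bases). Control peaks without counterpart became 2 and 1 at the IGF2BP1 locus in the IGF2BP1 and IGF2BP3 knockouts and 1 at the IGF2BP2 locus in the IGF2BP1 knockout. At the IGF2BP2 locus in its own knockout, they rose from 2 to 3, and knockout peaks without counterpart fell from 4 to 3, both within the limits. IGF2BP2 knockout peaks without counterpart at the IGF2BP1 locus became 1. Backgrounds moved as follows. Start peaks were absent at 4.74% (IGF2BP2 knockout) and 2.77% (IGF2BP3 knockout) of genes, in more pieces at 1.68% (IGF2BP1 knockout) and 2.14% (IGF2BP3 knockout), and in fewer at 2.4% (IGF2BP3 knockout). Starts narrower than in the IGF2BP1 knockout made up 7.24%, and starts wider in the IGF2BP2 knockout than in the control 1.85%. Locus counts were higher at 3.53, 3.38 and 3.31% of genes without IGF2BP1, IGF2BP2 and IGF2BP3, and lower at 18.7% in the last. Control peaks without counterpart made up 23.1, 26.9 and 23.8%, and knockout peaks 23.8, 26.6 and 23.6%, in the same order. The cause was not tested.

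With a flank of 25 kb, the IGF2BP1 locus held 2 control, 2 IGF2BP1 knockout and 4 IGF2BP2 knockout peaks, so the own knockout was no longer below the control. Merging peaks closer than 500 bp left 1 piece at IGF2BP1 in the IGF2BP3 knockout and 1 at IGF2BP2 in the control and the IGF2BP1 and IGF2BP2 knockouts. With a start window of 2 kb, cover at IGF2BP1 was 2434 (control), 2392 (IGF2BP1 knockout) and 2369 bases (IGF2BP3 knockout), and at IGF2BP2 1534, 2587, 1117 and 1773 bases (control, IGF2BP1, IGF2BP2 and IGF2BP3 knockouts). The IGF2BP2 knockout remained the lowest at both starts.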

Other observations

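The longest peak-free stretch between neighbouring peaks of a locus was measured after the values above had been seen. Stretches from an edge of the locus to its first or last peak were not counted. In the IGF2BP2 knockout, 135.5 kb of the IGF2BP2 locus (chr3:185689488-185825000) held no peak, from the site at 136.0 kb to the piece over the start. Between peaks, the longest stretch of that locus was 50.1 kb in the control, 40.9 kb in the IGF2BP1 knockout and 51.8 kb in the IGF2BP3 knockout. Wholly inside the 135.5 kb stretch lay 2 control peaks, 5 IGF2BP1 knockout peaks and 4 IGF2BP3 knockout peaks. The control also had no peak from the locus edge at chr3:185593130 to its first peak at 185734023, which is longer than 135.5 kb. From that edge, the first peaks began at 185660248 in the IGF2BP1 knockout, 185660292 in the IGF2BP3 knockout and 185642910 in the own knockout.

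In the IGF2BP3 knockout, the longest stretch of the IGF2BP3 locus was 116.0 kb (chr7:23358062-23474030), against 71.9 to 72.2 kb in the other lists. It was likewise chosen from the own knockout list. It covered the start and the nearer body site, where the control and the IGF2BP1 knockout had 2 peaks each and the IGF2BP2 knockout 1. At the IGF2BP1 locus the longest stretch between peaks was 34.1 to 35.9 kb in the 4 lists, with 34.4 kb in its own knockout. The stretch from the last peak to the locus edge at chr17:49106145 was longer than that in every list. The last peak ended at 49032858 in the control and 49032889 in the own knockout. In the IGF2BP2 and IGF2BP3 knockouts it ended at 49069188 and 49069182.

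The rule of 50 kb left out sites close to its edge that were in all 4 lists. The nearest lay 1.24 to 1.38 kb outside the IGF2BP1 locus on the upstream side, with 903 bp in the control. Those outside the IGF2BP2 locus, at the start of SENP2, lay 6.39 to 6.42 kb beyond it, and those at the start of TRA2A 10.8 to 11.1 kb beyond the IGF2BP3 locus.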
